A study of Mus musculus with 10 samples.

Results

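Notch signalling genes were examined in the 2 epithelial layers of the mouse mammary duct, in order to see which layer carries the transcripts of the sending side and which those of the receiving side. The 10 genes are the receptors Notch1, Notch2, Notch3 and Notch4, the ligands Jag1, Jag2 and Dll1, and the target genes Hes1, Hey1 and Heyl. They were listed by name as parts of the pathway, with earlier results of these data known, from the 24594 genes of the count table, and 9 of the 10 were among the 14609 genes that passed the filter on low counts and were tested. Bulk RNA-seq had been performed on wild-type C57BL/6J mice, for which the labels name no treatment, and whose mammary tissue was digested and sorted by EpCAM and CD49f into luminal cells, the inner layer that faces the lumen, and basal cells, the outer contractile layer. There were 5 luminal and 5 basal libraries. Neither age nor sex stands in the labels, and the study's methods give an age of 12 to 20 weeks for its mice in general. The luminal sort holds progenitor and mature cells together, so that a luminal value is an average over both.

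Notch receptors and their ligands are both membrane proteins, so the signal passes only between cells that touch. Binding of a Jagged or Delta-like ligand on one cell lets ADAM proteases and then gamma-secretase cut the receptor on the neighbouring cell, and the freed intracellular domain joins the DNA-binding protein RBPJ and Mastermind-like coactivators to switch on repressor genes of the Hes and Hey families. In the mammary gland the pathway is known for its part in the commitment of progenitors to the luminal lineage, whereas basal cells carry Delta-like and Jagged ligands.

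The data showed ligand transcripts mostly in the basal layer, while transcripts of Notch1, Notch3 and Hes1 were higher in the luminal layer. Jag1, Jag2 and Dll1 were higher in basal cells by 15.6-fold, 47.8-fold and 89.2-fold, and Notch3 was 36.0-fold, Hes1 10.2-fold and Notch1 2.86-fold higher in luminal cells (fitted folds, n = 5 per layer). The target gene Hey1 went the other way from Hes1 and was 3.15-fold higher in basal cells. Notch2 and Notch4 were not called in either direction, and Heyl had 8 counts in the 10 libraries together. Thus 3 members were higher in luminal cells, where 33.6% of all tested genes were, and 4 were higher in basal cells, where 31.2% of all tested genes were (edgeR quasi-likelihood test, adjusted p under 0.05). All 7 also differed at least 2-fold, which held for 20.9% of tested genes towards luminal and 19.1% towards basal cells. The libraries of the 2 layers did not overlap for any of the 7, which was so for 24.7% of tested genes with luminal higher and 25.3% with basal higher. The median size of the log2 fold change over the 9 tested members was 3.36, against 0.81 over all tested genes, which is a description of a chosen list. Since 64.8% of all tested genes were called between these layers, a call alone says little about a member, and the sizes are given throughout.

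**Figure D1:**
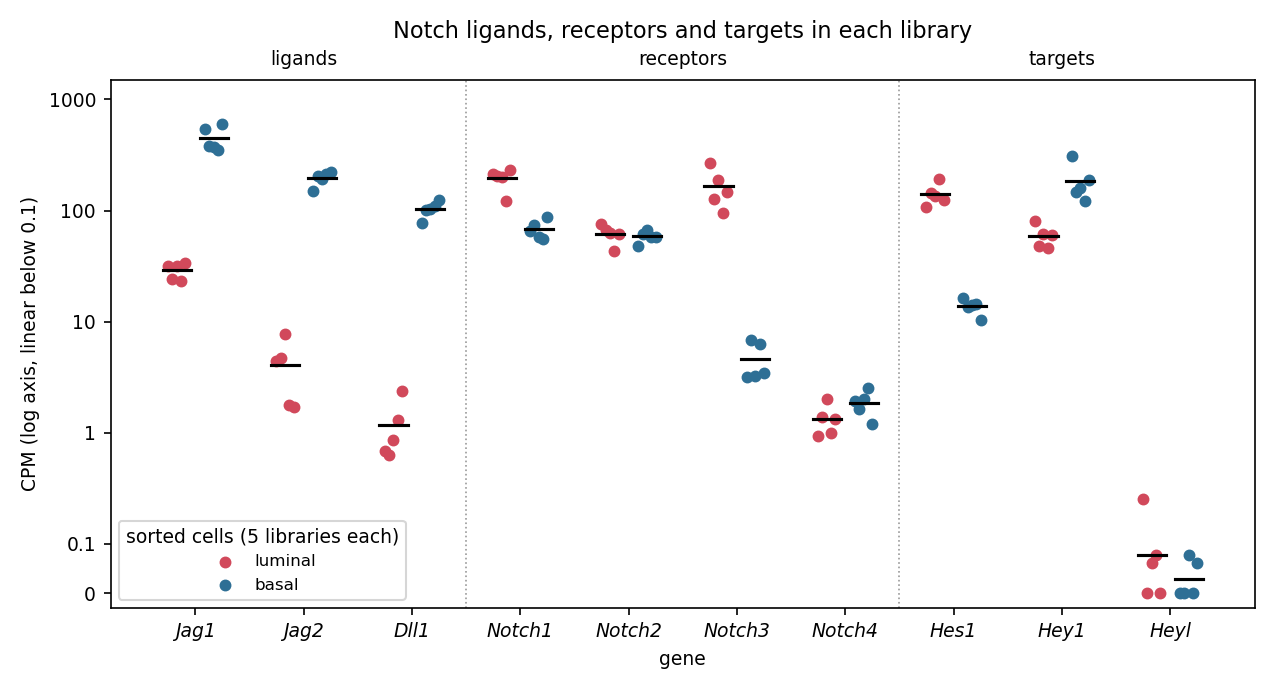
Expression of the 10 genes in each library, in CPM (counts scaled to the library total) on a log axis that is linear below 0.1; points are single libraries and black lines the means of 5 libraries. Jag1, Jag2, Dll1 and Hey1 lie higher in every basal library, Notch1, Notch3 and Hes1 in every luminal library, and Notch2 and Notch4 overlap.

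The values below are CPM, the usual depth-scaled counts, here on library totals scaled by the trimmed mean of M-values (TMM), and are given in the order of replicates 1 to 5. Log2 fold changes are luminal against basal, so that negative values mean basal is higher. The title of each of the 10 libraries gives the other cell type than its remaining labels do, and the layers were therefore checked against lineage markers: all 9 luminal and all 8 basal markers followed the cell type label used here. The basal markers stood at 0.143% to 0.878% of their basal level in luminal libraries, whereas the luminal markers stood at 0.0835% to 21.7% of their luminal level in basal libraries. Library totals ran from 13203146 to 17998165 counts. In bulk samples, fewer cells of a type and less RNA per cell cannot be told apart.

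The start regions of the 3 ligand genes and of Notch3 are shown since, of the 10 members, these 4 differ most between the layers, together with that of Hey2, a target gene whose region carries the core of the RBPJ site. Each is 300 bases long, from 250 bases before to 50 after the start of transcription, on the minus strand, from RefSeq on GRCm38.p6 (Jag1 chr2:137116471-137116770, Jag2 chr12:112929446-112929745, Dll1 chr17:15376883-15377182, Notch3 chr17:32166841-32167140, Hey2 chr10:30842734-30843033). Capitals mark matches, on either strand, to the RBPJ core TGGGAA, the E-box CACGTG and the N-box CACNAG, the last being the letters to which Hes repressors bind.
Jag1: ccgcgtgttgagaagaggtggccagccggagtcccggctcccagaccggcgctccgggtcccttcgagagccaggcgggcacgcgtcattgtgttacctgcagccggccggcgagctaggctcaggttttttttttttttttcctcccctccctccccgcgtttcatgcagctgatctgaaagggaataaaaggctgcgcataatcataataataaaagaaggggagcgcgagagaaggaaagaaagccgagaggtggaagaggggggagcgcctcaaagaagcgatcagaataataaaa
Jag2: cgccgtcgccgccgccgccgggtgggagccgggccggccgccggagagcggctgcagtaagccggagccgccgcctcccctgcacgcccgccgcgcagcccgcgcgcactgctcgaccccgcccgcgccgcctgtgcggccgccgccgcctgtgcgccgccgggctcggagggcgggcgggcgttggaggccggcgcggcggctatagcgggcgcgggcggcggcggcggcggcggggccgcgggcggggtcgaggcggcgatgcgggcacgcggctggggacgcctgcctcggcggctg
Dll1: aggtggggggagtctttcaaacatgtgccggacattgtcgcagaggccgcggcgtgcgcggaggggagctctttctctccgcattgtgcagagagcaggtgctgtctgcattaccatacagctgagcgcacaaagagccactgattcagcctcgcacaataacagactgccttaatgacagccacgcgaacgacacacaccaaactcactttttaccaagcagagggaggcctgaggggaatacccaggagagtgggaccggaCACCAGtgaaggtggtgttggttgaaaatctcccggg
Notch3: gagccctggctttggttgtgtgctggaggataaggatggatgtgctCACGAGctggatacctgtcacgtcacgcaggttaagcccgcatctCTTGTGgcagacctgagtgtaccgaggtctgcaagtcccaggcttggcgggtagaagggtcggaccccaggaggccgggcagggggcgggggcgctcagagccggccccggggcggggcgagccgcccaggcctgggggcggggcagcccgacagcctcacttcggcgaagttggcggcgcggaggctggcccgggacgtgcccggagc
Hey2: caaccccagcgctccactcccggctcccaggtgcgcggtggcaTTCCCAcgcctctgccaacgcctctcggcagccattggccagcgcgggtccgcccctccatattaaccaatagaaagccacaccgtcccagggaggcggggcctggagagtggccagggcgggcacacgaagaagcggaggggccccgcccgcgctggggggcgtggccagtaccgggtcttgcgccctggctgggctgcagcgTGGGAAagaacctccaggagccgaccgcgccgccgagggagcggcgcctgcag
In these windows the RBPJ core lay at -3 on the same strand and at -207 on the opposite strand of Hey2. The 2 N-boxes of Notch3 lay at -204 and -159, and the window of Dll1 held 1 N-box at 14 bases after the start. Those of Jag1 and Jag2 held none of the 3 motifs. Windows were found for 7 of the 10 members, the receptors and ligands but not the targets Hes1, Hey1 and Heyl. Of these 8 windows of receptors and ligands, as Dll1 has 2, 0 held the RBPJ core. Over all 32851 windows of the table, 25.6% held the RBPJ core, 7.15% the E-box and 42.5% the N-box. These short motifs are frequent by composition, and a match is a description of letters only. The window of Jag2 was the richest in G and C of the 5 (86.0%, against a median of 52.7% over all windows), followed by those of Hey2 (72.0%), Notch3 (70.0%), Dll1 (56.3%) and Jag1 (55.7%).

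Among the receptors, Notch3 showed the largest difference between the layers. Notch3 (Entrez 18131, GRCm38 chr17:32120820-32166896) was at 268, 126, 190.1, 94.9 and 148 CPM in luminal and at 3.18, 6.75, 3.25, 6.31 and 3.42 CPM in basal libraries. The lowest luminal library thus stood far above the highest basal one. The means were 165 ± 66.9 and 4.58 ± 1.79 CPM (SD, n = 5), and the log2 fold change was 5.17 with a standard error (SE) of 0.33 (edgeR, adjusted p = 9.19e-09). Of the 14609 tested genes, 292 were higher in luminal cells by as much or more, Notch3 included. The spread among luminal libraries was wide, with a coefficient of variation of 40.5%. Notch3 is also known as a receptor of pericytes, the mural cells of small vessels. All 5 pericyte markers tested of 7 listed were higher in basal libraries. Of these, Rgs5, Pdgfrb, Kcnj8 and Cspg4 had 0 counts in luminal replicate 4 and met the filter in full only in the basal group. Their calls thus rest on the group where they were high. Sums over the list were 1.83 to 6.62 CPM in luminal and 91.3 to 188 CPM in basal libraries, of which Mcam alone made up 104 CPM of the basal mean. The defining marker Rgs5 was at 16.9 to 28.9 CPM in basal libraries and at 0 in 4 of the 5 luminal libraries, and Higd1b was at 0 in all 10. Mcam and the sum of the list thus lay higher in the layer where Notch3 was lower and Jag1, Jag2, Dll1 and Hey1 were higher. Of 7 fibroblast markers tested, Dcn was higher in luminal libraries (38.3 against 12.0 CPM), Pdgfra in basal libraries, and 5 were not called. Dcn and Notch3 were both highest in luminal replicate 1. The only adipocyte and immune markers tested, Fabp4 (5.42 against 1.01 CPM) and Csf1r (14.8 against 9.32 CPM), were higher in basal libraries. With 7 counts in luminal replicate 4, Fabp4 also met the filter in full only in the basal group. The part of such cells in the values of Notch3, Jag1, Jag2, Dll1 and Hey1 was not tested.

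Notch1, the receptor most studied in luminal commitment, was higher in luminal cells by a smaller margin. Notch1 (Entrez 18128, chr2:26457902-26503822) was at 214, 205, 202, 121 and 230.1 CPM in luminal and at 66.0, 74.1, 57.4, 55.1 and 87.6 CPM in basal libraries. The groups did not overlap, although luminal replicate 4 stood well below the other luminal libraries. The means were 194 ± 42.2 and 68.0 ± 13.2 CPM (SD, n = 5), with a log2 fold change of 1.51 (SE 0.19, edgeR adjusted p = 6.28e-06). A change of this size or more towards luminal cells was found in 12.9% of tested genes. Basal cells thus kept 35.0% of the luminal level of Notch1, but only 2.77% of that of Notch3.

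Notch2 was at a like level in both layers. Notch2 (Entrez 18129, chr3:98013538-98150367) was at 75.4, 67.0, 63.2, 42.9 and 61.4 CPM in luminal and at 48.2, 61.3, 67.2, 58.2 and 57.4 CPM in basal libraries. The groups overlapped, and the luminal library was the higher one in 3 of the 5 same-numbered pairs. The log2 fold change was 0.08 (SE 0.16, edgeR adjusted p = 0.652), with an approximate 95% interval from -0.22 to 0.39, so that a difference of more than 2-fold lies outside the interval. Notch4, a receptor known from endothelial cells, was near the limit of detection, with 13 to 40 counts per library. It was at 1.33 CPM on average in luminal and 1.86 CPM in basal libraries, with overlapping groups, and its log2 fold change of -0.47 (SE 0.38, edgeR adjusted p = 0.285) had an interval from -1.21 to 0.26. Of 10 endothelial markers, 7 were tested, of which Vwf was higher in luminal and Cdh5, Esam and Cldn5 were higher in basal libraries. Cdh5, Esam and Cldn5 had at most 8 counts in a luminal library, passed the filter only through the basal group and so had to differ. The sum of the endothelial list was 71.3 to 119 CPM in luminal and 16.2 to 25.0 CPM in basal libraries. Vwf alone made up 81.6 CPM of the luminal mean. The defining marker Cdh5 was at 0.0527 to 0.491 CPM in luminal and 2.69 to 6.69 CPM in basal libraries, and the part of endothelial RNA in the values of Notch4 was not tested.

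All 3 ligands were higher in every basal library. Jag1 (Entrez 16449, chr2:137081451-137116520), a Jagged ligand, was at 542, 383, 377, 347 and 598 CPM in basal and at 31.9, 24.2, 31.4, 23.1 and 33.8 CPM in luminal libraries. Basal replicates 1 and 5 were the highest, and even the lowest basal library stood far above the highest luminal one. With means of 449 ± 113 and 28.9 ± 4.86 CPM (SD, n = 5), the log2 fold change was -3.96 (SE 0.21, edgeR adjusted p = 1.14e-09). Luminal cells held 6.43% of the basal level of Jag1, the largest such share of the 3 ligands.

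Jag2 (Entrez 16450, chr12:112907803-112929812), the second Jagged ligand, was at 150.2, 205, 191, 214 and 222 CPM in basal and at 4.38, 4.69, 7.79, 1.76 and 1.71 CPM in luminal libraries. Basal libraries differed little among themselves, with a coefficient of variation of 14.4%, whereas the low luminal values varied by 61.8%. The means were 197 ± 28.4 and 4.06 ± 2.51 CPM (SD, n = 5), and the log2 fold change was -5.58 (SE 0.36, edgeR adjusted p = 1.00e-08). Dll1 (Entrez 13388, chr17:15367354-15376932), a Delta-like ligand known as a marker of a subset of basal cells, was at 77.9, 101, 103, 109.6 and 125 CPM in basal libraries. In luminal libraries Dll1 was at 0.688, 0.632, 0.859, 1.30 and 2.35 CPM, which rests on 11 to 37 counts per library. No library of one layer came near those of the other, and the means were 103 ± 17.1 and 1.16 ± 0.711 CPM (SD, n = 5). Dll1 showed the largest log2 fold change of the 10 genes, at -6.48 (SE 0.32, edgeR adjusted p = 6.31e-10). Towards basal cells, 1.27% of tested genes reached this size. The luminal level was 2.07% of the basal level for Jag2 and 1.13% for Dll1.

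Summed per length, ligand and receptor transcripts lay in opposite layers. For this, CPM was divided by the length of the longest transcript in kb, since only levels per length can be compared between genes. The summed level of the 3 ligands was 148, 137, 133, 134 and 185 CPM per kb in basal and 6.73, 5.40, 7.36, 4.83 and 7.01 CPM per kb in luminal libraries. The summed level of the 4 receptors was 63.2, 43.9, 51.3, 28.9 and 48.8 CPM per kb in luminal and 12.2, 14.7, 13.2, 12.5 and 15.3 CPM per kb in basal libraries. The ligand sum was thus 23.5-fold higher in basal cells (147 ± 21.8 against 6.27 ± 1.09, SD, n = 5), and the receptor sum was 3.47-fold higher in luminal cells (47.2 ± 12.5 against 13.6 ± 1.36, SD, n = 5). Basal libraries held 9.26 to 12.1 times as much ligand as receptor RNA per length, whereas in luminal libraries this ratio was 0.106 to 0.167. These sums are descriptions of chosen genes and carry no test. The ligand Dll4, described below, is not in the ligand sum and was higher in luminal cells (1.05 against 0.432 CPM per kb). Basal cells nevertheless kept a measurable receptor level, nearly all of it Notch1 and Notch2, and luminal cells kept a low level of Jag1.

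**Figure D2:**
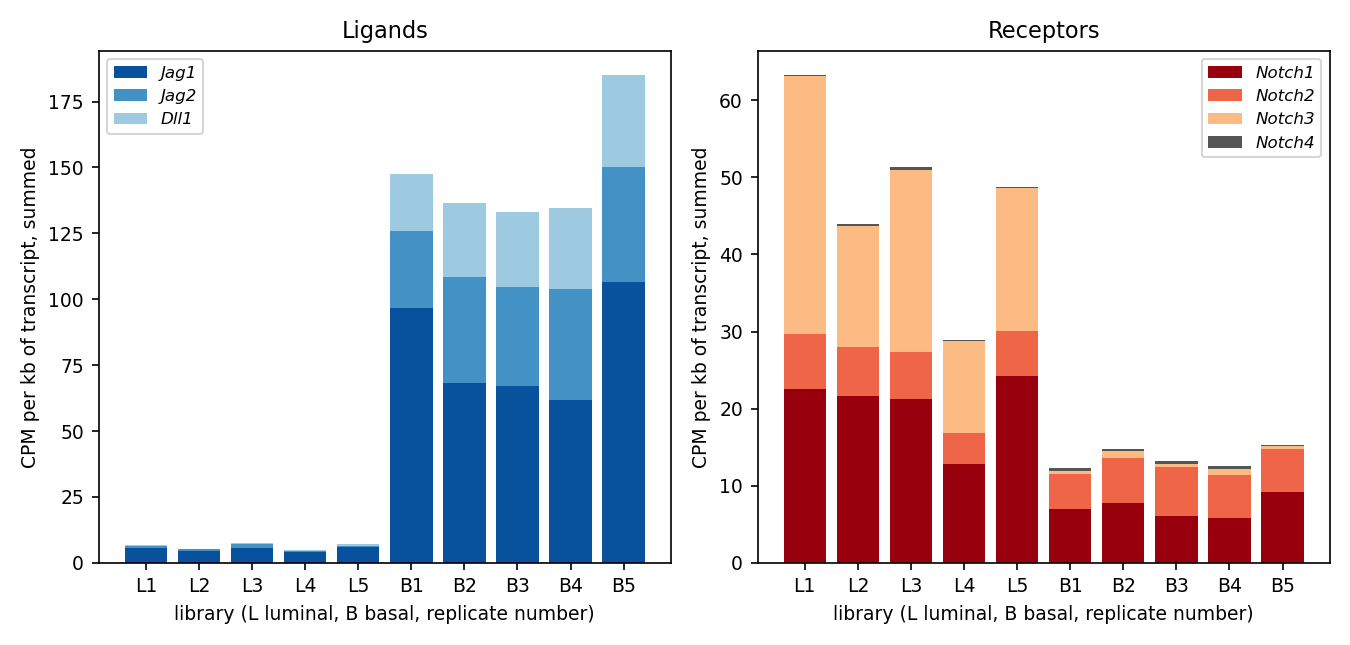
Summed levels of the 3 ligands (left) and the 4 receptors (right) in each library, in CPM per kb of transcript, with each gene as a part of the bar; L marks luminal and B basal libraries. Ligand bars reach 133 to 185 in basal and 4.83 to 7.36 in luminal libraries, while receptor bars reach 28.9 to 63.2 in luminal and 12.2 to 15.3 in basal libraries.

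The layers also differed in which receptor made up the total. In luminal libraries, Notch1 held 44.1% ± 5.84 and Notch3 42.8% ± 6.86 of the receptor level per length, and Notch2 held 12.8% ± 1.48 (SD, n = 5). In basal libraries, Notch1 held 52.5% ± 6.31, Notch2 41.2% ± 5.25 and Notch3 4.22% ± 1.65 (SD, n = 5). Notch4 was a minor part in both, at 0.447% in luminal and 2.12% in basal libraries. The share of Notch1 overlapped between the layers (35.6% to 49.7% in luminal and 46.0% to 60.3% in basal libraries), while those of Notch2 and Notch3 did not. Of the summed ligands, which leave out Dll4, Jag1 held the largest part in both layers, 53.9% ± 7.66 in basal and 82.3% ± 4.26 in luminal libraries (SD, n = 5). Jag2 held 26.4% ± 4.62 and Dll1 19.7% ± 3.12 of the basal ligand level (SD, n = 5).

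Ranked per length, the 10 genes gave a different order in each layer. In luminal cells Hes1 was highest at 96.1 CPM per kb, followed by Hey1 (24.4), Notch3 (20.6), Notch1 (20.5), Notch2 (5.90), Jag1 (5.14), Jag2 (0.796), Dll1 (0.325), Notch4 (0.202) and Heyl (0.0171). Of these neighbours, the libraries overlapped between Hey1 and Notch3, Notch3 and Notch1, Notch2 and Jag1, Jag2 and Dll1, and Dll1 and Notch4. In basal cells Jag1 led at 80.1 CPM per kb, followed by Hey1 (76.7), Jag2 (38.5), Dll1 (28.8), Hes1 (9.38), Notch1 (7.17), Notch2 (5.57), Notch3 (0.572), Notch4 (0.282) and Heyl (0.00605). Here Jag1 and Hey1, Jag2 and Dll1, Hes1 and Notch1, and Notch1 and Notch2 overlapped. The 3 ligands therefore ranked above all receptors in basal cells and below Notch1, Notch2 and Notch3 in luminal cells, with only Jag1 and Notch2 of the latter overlapping.

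The target genes did not move together. Hes1 (Entrez 15205, chr16:30065357-30067796), a basic helix-loop-helix repressor and the best known Notch target, was at 108, 145, 136, 191 and 125 CPM in luminal and at 16.5, 13.6, 14.1, 14.4 and 10.2 CPM in basal libraries. Every luminal library was far above every basal one, with means of 141 ± 31.2 and 13.8 ± 2.24 CPM (SD, n = 5). The log2 fold change was 3.36 (SE 0.18, edgeR adjusted p = 1.96e-09). Luminal replicate 4, which was the lowest luminal library for Notch1, Notch2 and Notch3, was the highest for Hes1.

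Hey1 (Entrez 15213, chr3:8663359-8667038), a repressor of the related Hey family, was at 313, 148, 159.5, 121 and 187 CPM in basal and at 80.5, 47.5, 61.9, 45.6 and 59.8 CPM in luminal libraries. Again the groups did not overlap, here with basal cells higher. The means were 186 ± 74.8 and 59.0 ± 14.0 CPM (SD, n = 5), with a log2 fold change of -1.65 (SE 0.24, edgeR adjusted p = 3.56e-05). Basal replicate 1 stood above the other basal libraries, and without it the log2 fold change was -1.40. In the same library, most transcripts of a list that rise when tissue is dissociated were also high, with Jun at 2145 CPM and Atf3 at 987 CPM. Among basal libraries, however, Egr1 was highest in replicate 5 (465 CPM) and Ier2 in replicate 4 (202 CPM), and the others of the list in replicate 1. Of the 10 genes of that list, 8 were higher in basal cells, where 31.2% of all tested genes were. Hspa1a and Hspa1b were higher in luminal cells, where 33.6% of all tested genes were. Sums over the list were 4637 to 6554 CPM in luminal and 4537 to 8948 CPM in basal libraries. None of the list was at 0, and its part in the values of Hey1 and the other members was not tested. Per length, Hes1 was at 2.22 to 6.93 times the level of Hey1 in luminal libraries and at 0.0869 to 0.196 times in basal libraries, so the leading target gene changed with the layer.

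Heyl (Entrez 56198, chr4:123233556-123249870), the third Hey gene, had 4, 0, 1, 1 and 0 counts in luminal and 0, 0, 1, 0 and 1 counts in basal libraries. It did not pass the filter and was not tested, and no difference was detectable at this depth.

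The wider pathway was read from a list of 68 genes in 11 roles, the 10 members included. Of these, 61 were tested: luminal cells were higher for 19, basal cells for 23, and 19 were not called. With 68.9% called, the list lay near the 64.8% of all tested genes, and its median size of the log2 fold change, 0.85, was close to the 0.81 of all genes. Without the members, 35 of 52 tested genes were called (67.3%), 16 with luminal and 19 with basal cells higher, and 6 of the roles had genes on both sides.

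**Figure D3:**
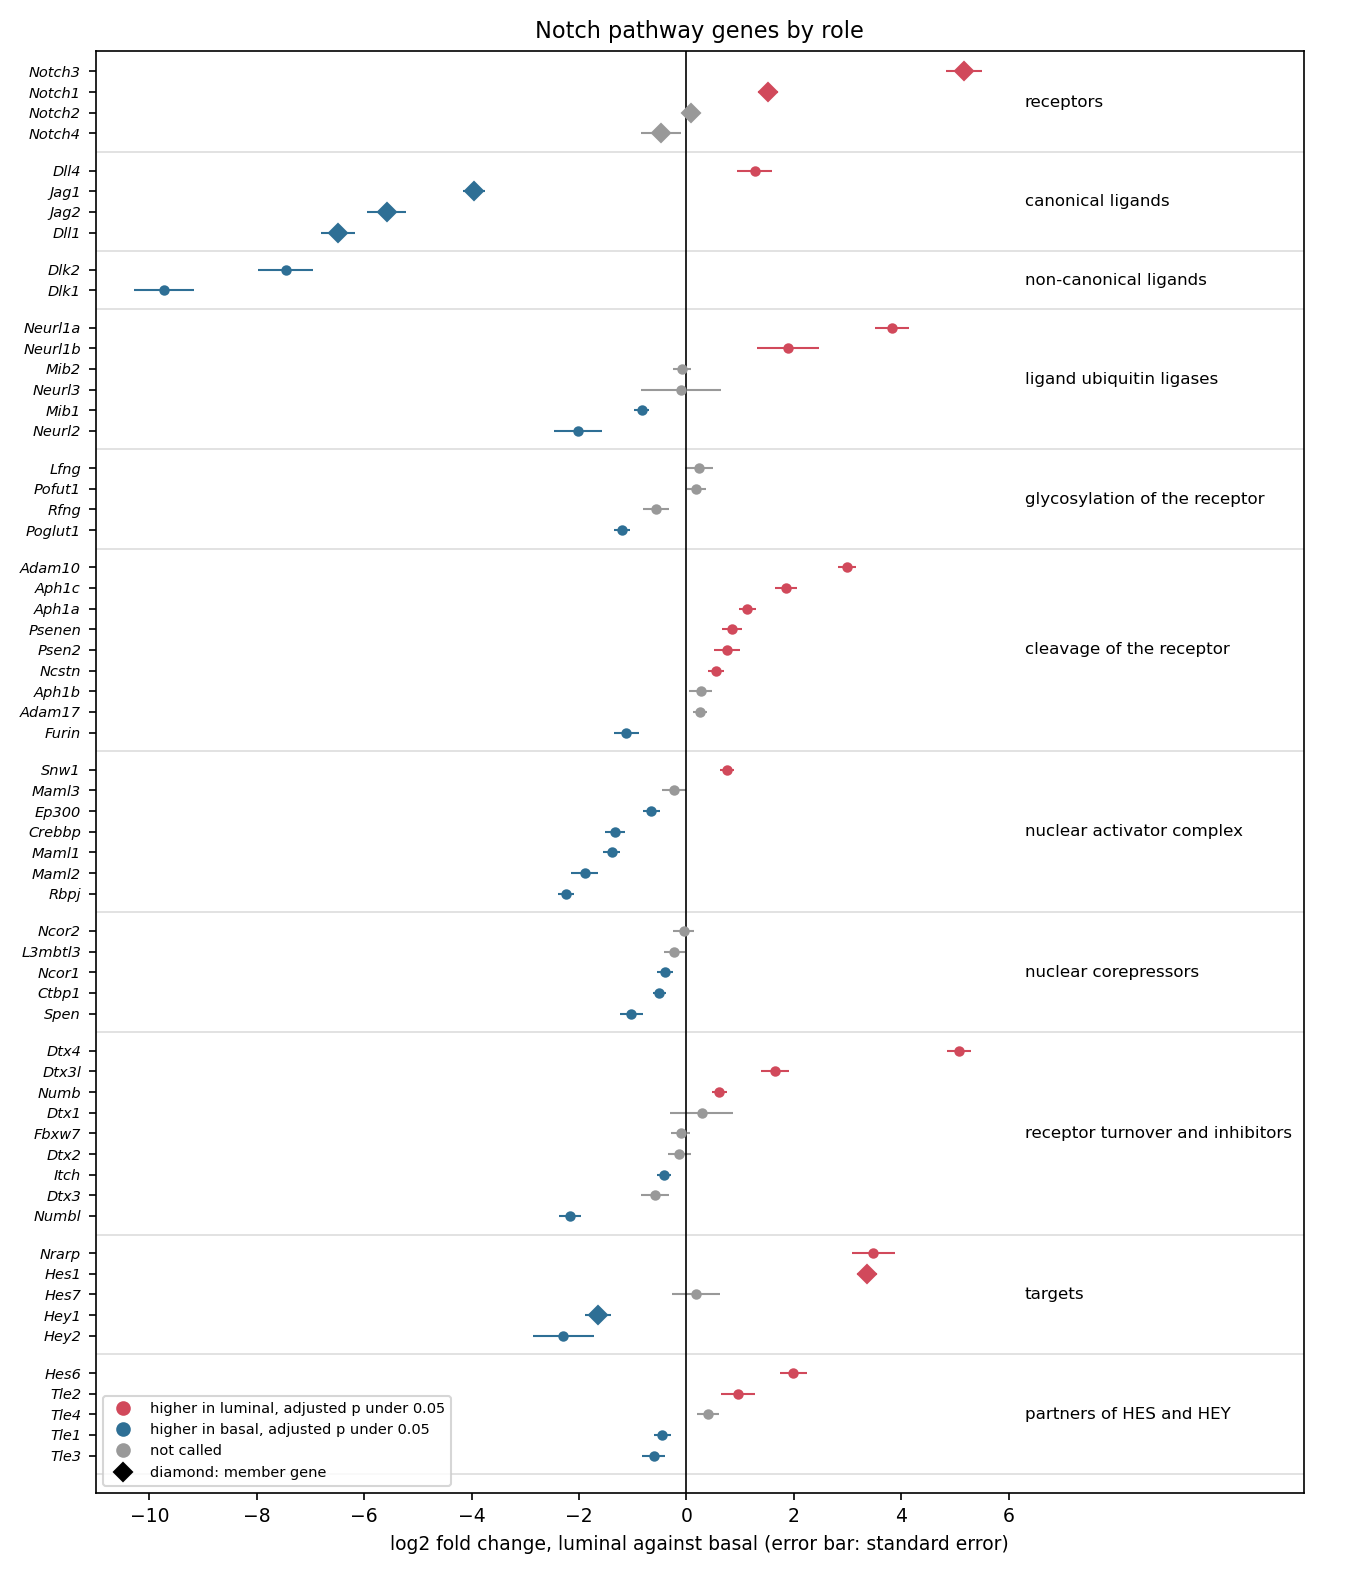
Log2 fold change (luminal against basal) of tested pathway genes, grouped by role, with the standard error as bar; red marks genes higher in luminal, blue genes higher in basal cells and grey genes not called, and diamonds mark the 9 tested members. Among the members the values run from -6.48 (Dll1) to 5.17 (Notch3); the fitted value of Dlk1, which had at most 2 counts in a luminal library, is not a bound and depends on the fit.

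Beside the members, 1 further canonical ligand was tested, and it went the other way. Dll4, a Delta-like ligand known from vessels, was at 3.56, 2.16, 5.34, 4.81 and 3.87 CPM in luminal and at 1.68, 1.71, 1.16, 1.75 and 1.80 CPM in basal libraries. All luminal values lay above the basal ones, with a log2 fold change of 1.28 (SE 0.33, edgeR adjusted p = 0.00345), yet the luminal level rested on only 41 to 87 counts per library. Dll3 had 0 counts in all libraries. Both non-canonical ligands tested were higher in basal cells, but with at most 4 counts in a luminal library they passed the filter only through the basal group and so had to differ. Dner did not pass the filter. Dlk1, a Delta-like protein that lacks the receptor-binding domain of the canonical ligands, was at 27.9 ± 10.1 CPM (SD, n = 5) in basal libraries and had at most 2 counts in a luminal library, which with a floor of 3 counts per library puts basal cells at least 147-fold higher.

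Enzymes that act on the ligand and on the receptor were divided. Of 6 ubiquitin ligases for ligands, 2 were higher in each layer (66.7% called, close to the 64.8% of all tested genes). Neurl1a was at 9.98 CPM in luminal and 0.695 CPM in basal cells (log2 fold change 3.83, SE 0.32, edgeR adjusted p = 1.08e-07), while Neurl2 was at 1.61 and 6.65 CPM (log2 fold change -2.03, adjusted p = 0.00114). With 8 to 12 counts in basal libraries, Neurl1a met the filter in full only in the luminal group. Neurl2, with 4 counts in luminal replicate 4, met it in full only in the basal group. These calls thus rest on the group where each gene was high. Of the 4 tested enzymes that add sugars to the receptor, Poglut1, an O-glucosyltransferase, was higher in basal cells (64.2 against 27.8 CPM, log2 fold change -1.21, adjusted p = 7.85e-06) and 3 were not called (25.0% called). Mfng did not pass the filter.

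Of 10 tested genes of the cleavage machinery, luminal cells were higher for 6 and basal cells for 1 (70.0% called, against 64.8% of all tested genes). Adam10, the protease that cuts the ligand-bound receptor outside the membrane, was at 506 ± 41.1 CPM in luminal and 63.6 ± 12.8 CPM in basal libraries (SD, n = 5; log2 fold change 2.99, SE 0.16, edgeR adjusted p = 1.77e-09). The luminal libraries stood at 477 to 576 CPM and the basal ones at 51.6 to 84.0 CPM, so the groups were far apart. Psen2, Ncstn, Aph1a, Aph1c and Psenen, which encode parts of gamma-secretase and were picked out after their values were seen, were higher in luminal cells, and Aph1c showed the largest log2 fold change of these 5, at 1.86. Furin, which cuts the receptor during its maturation, was higher in basal cells (285 against 131 CPM, log2 fold change -1.12, adjusted p = 0.000771).

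Of 7 tested genes of the nuclear complex through which the receptor acts, basal cells were higher for 5 and luminal cells for 1, where 31.2% and 33.6% of all tested genes were. Rbpj, the DNA-binding partner of all Notch receptors, was at 389, 304, 337, 277 and 360.1 CPM in basal and at 77.2, 79.1, 70.8, 64.4 and 60.4 CPM in luminal libraries. No values overlapped, and the log2 fold change was -2.24 (SE 0.14, edgeR adjusted p = 8.66e-09). The layer with the higher level of Notch1, Notch3 and Hes1 thus had the lower level of Rbpj. The coactivators Maml2 (-1.89), Maml1 (-1.39) and Crebbp (-1.33), named after their values were seen, were also higher in basal cells on the log2 scale. Maml3, also named after its values were seen, was not called (log2 fold change -0.24, edgeR adjusted p = 0.366). Snw1, which binds the complex, was higher in luminal cells (106 against 62.6 CPM, log2 fold change 0.76, adjusted p = 0.000202). Of 5 corepressors, 3 were higher in basal and 0 in luminal cells (60.0% called, against 64.8% of all tested genes). Spen, which holds RBPJ targets silent in the absence of signal, was at 175 CPM in basal and 85.9 CPM in luminal cells (log2 fold change -1.03, adjusted p = 0.000702).

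Among 9 genes of receptor turnover and inhibition, luminal cells were higher for 3 and basal cells for 2 (55.6% called, against 64.8% of all tested genes). Dtx4, a Deltex ubiquitin ligase, was at 77.6 ± 16.3 CPM in luminal and 2.27 ± 0.526 CPM in basal libraries (SD, n = 5), with a log2 fold change of 5.08 (SE 0.22, edgeR adjusted p = 2.59e-10) that was close in size to that of Notch3. Numbl, a relative of the inhibitor Numb, was higher in basal cells (90.9 against 20.2 CPM, log2 fold change -2.17, adjusted p = 4.87e-07).

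Further target genes were found on both sides. Of 9 listed targets 5 were tested (80.0% called, against 64.8% of all tested genes). Hes1 and Nrarp were higher in luminal cells, Hey1 and Hey2 in basal cells, and Hes7 was not called. Nrarp, a target that dampens the signal by destabilising the receptor's intracellular domain, was at 19.6, 15.7, 15.5, 7.10 and 15.6 CPM in luminal and at 0.312, 2.11, 1.01, 1.44 and 1.68 CPM in basal libraries. The groups were well apart, and luminal replicate 4, the lowest of its group for the receptors Notch1 to Notch3, was also the lowest for Nrarp. Its log2 fold change was 3.48 (SE 0.40, edgeR adjusted p = 3.48e-06). At 0.312 CPM, basal replicate 1 lay below the filter, so Nrarp met it in full only in the luminal group, on which this call rests. Hey2 was low in both layers and, with at most 14 counts in a luminal library, rested on the basal group, at 0.449 CPM in luminal and 2.27 CPM in basal libraries (log2 fold change -2.29, SE 0.57, edgeR adjusted p = 0.00288). Hes2 and Hes3 had 0 counts, and Hes5 had 3 counts in all libraries together. Of 5 partners of the Hes and Hey repressors, 2 were higher in each layer (80.0% called, against 64.8% of all tested genes). Hes6, a family member known to oppose Hes1, was higher in luminal cells (30.0 against 7.54 CPM, log2 fold change 1.99, adjusted p = 1.01e-05). The corepressor Tle3 was at 175 CPM in basal and 115 CPM in luminal cells (log2 fold change -0.61, adjusted p = 0.0250), a call that was lost under 6 of the alternatives tried. The adjusted p was 0.0649 without luminal replicate 2, 0.0504 without luminal replicate 3 and 0.0566 without basal replicate 5.

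The exons of 4 members overlap those of other annotated genes. This concerned 1378 of 9488 exon bases of Notch1, 541 of Notch2, 488 of Notch3 and 624 of Dll1, and since it is not known whether the counting used strand, reads from these stretches cannot be assigned with certainty. No such overlap was found for Jag1, Jag2, Notch4, Hes1, Hey1 or Heyl. The receptors have 30 to 34 exons and Hes1 has 4, and the aligner did not span splice junctions, so that reads over a junction could be lost. How far this lowers the level per length of the receptors against that of the short target genes was not tested.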

How the data were processed

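RNA-seq libraries from sorted mammary cells were compared, 5 luminal and 5 basal, grouped by the cell type label. The authors deposited raw counts per gene, as whole numbers with Entrez identifiers. The submitters' processing notes name cutadapt 4.2 and Bowtie2 2.3.5.1, and the study's methods give mm10. Those methods state fewer replicates, so that they apply to these libraries was assumed. Counting tool, annotation, strand and multimapping are not given in the sources used here. A luminal and a basal library of one replicate number also carry one leading number in the description, which was read as the animal. Nothing else says that libraries came from separate animals, and p-values measure the spread between these libraries. Bowtie2 does not align across splice junctions, which can lower counts of genes with many exons, an effect not tested here.

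Symbols of 24570 of 24594 genes came from a RefSeq table of GRCm38.p6, as did coordinates. filterByExpr of edgeR 4.0.16 (R 4.3.3; minimum count 10, minimum total 15) left 14609 genes and dropped 9985. Totals were scaled by TMM and the layers compared by edgeR's quasi-likelihood test, with Benjamini-Hochberg adjustment over all genes tested and a threshold of 0.05. The SE is the absolute log2 fold change over the square root of the F statistic, and intervals are approximate. Fitted folds are 2 to the power of the log2 fold change. Transcript lengths and exons came from GENCODE M21. Library totals were 13203146 to 17998165 counts, and intervals and floors cover counting error and the spread of these libraries only. No libraries agreed within sampling noise (lowest chi-square per degree of freedom 15.0). Simulated data with known changes on 14447 genes were used to test the fit of luminal against basal, which recovered 60 of 100 genes changed 2-fold and 92 of 98 changed 4-fold, with 11 false calls. Only these genes were changed, in both directions, whereas 64.8% of all tested genes were called in the data. The simulated recovery and false calls therefore need not hold for the data. Deviations from the group means correlated between the libraries of a number at -0.105, 0.103, -0.0449, 0.169 and 0.0614.

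The members and lists were chosen with earlier results of these data known. The genes named are all members, Rbpj, in each role of the wider list the most positive and the most negative called gene that is no member, and every untested gene. Others are said to be chosen after their values were seen, or only counted, and 1 gene of the wider list is counted but its values are not reported here. Alternatives were upper-quartile factors, DESeq2 size factors or unscaled library totals, no filter, at least 10 counts in every library, DESeq2 1.42.0, limma voom 3.58.1, glmTreat against a 2-fold change, the replicate number as a block, counts without scaling for length, and leaving out each library.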

Additional observations from a re-analysis of the deposited data

Results flagged for a closer look

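In 5 of 69 groups of 5 libraries examined, 1 library stood apart from the others by its gap relative to the range of the group, where chance gives about 3.45 (1 in 20). Luminal replicate 4 was low for Notch1, with 121 CPM where its group otherwise ran from 202 to 230.1 CPM. The same library was high for Maml2, with 45.9 CPM where its group otherwise ran from 17.4 to 19.1 CPM. Basal replicate 3 was low for Dll4, with 1.16 CPM where its group otherwise ran from 1.68 to 1.80 CPM. Basal replicate 4 was high for Psen2, with 17.4 CPM where its group otherwise ran from 11.2 to 12.1 CPM. Basal replicate 5 was high for the summed ligand level, with 185 CPM per kb where its group otherwise ran from 133 to 148. No cause was tested for any of these.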

How the results depend on the processing

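All 171 alternative values of the 9 tested members kept their direction and their side of the threshold, over 9 other settings and 10 left-out libraries. Over the settings, the log2 fold change ran from 1.45 to 1.71 for Notch1, from 5.11 to 5.37 for Notch3, from -4.03 to -3.76 for Jag1, from -5.76 to -5.37 for Jag2, from -6.62 to -6.30 for Dll1, from 3.29 to 3.54 for Hes1 and from -1.72 to -1.45 for Hey1. With the replicate block it was 5.13 for Notch3, -3.94 for Jag1 and -6.56 for Dll1, and the block changed no call of the 9 members or of the 24 wider genes named as called. Of 451 alternative values of 24 wider genes named, 436 kept their call and 15 lost it, while Dlk1, Neurl1a, Neurl2, Nrarp and Hey2 had no value when 10 counts in every library were asked for. Tested by glmTreat against a 2-fold change, the wider list gave 10 calls towards luminal and 13 towards basal cells in place of 19 and 23, and the calls of Dll4, Poglut1, Furin, Snw1, Spen, Tle3, Psen2, Ncstn, Aph1a and Psenen were lost, since that test asks for a larger change. The call of Tle3 was also lost with upper-quartile factors, with library totals only, and without luminal replicate 2, luminal replicate 3 or basal replicate 5 (the cause was not tested). The fitted log2 fold change of Dlk1 moved from -9.73 to -11.77 without luminal replicate 5, the only luminal library with counts of it. Upper-quartile factors and library totals moved the median log2 fold change of all genes by 0.12 and 0.19. From counts without scaling for length, Notch2 held 14.9% of the luminal receptor total in place of 12.8%. Leaving out 1 library at a time gave 3 to 3 members higher in luminal and 4 to 4 in basal cells, 19 to 20 and 20 to 24 genes of the wider list, ligand sums of 5.99 to 6.63 CPM per kb in luminal and 138 to 151 in basal libraries, and receptor sums of 43.2 to 51.8 in luminal and 13.2 to 13.9 in basal libraries. Depth limits Notch4, Heyl, Dll4, Hey2 and the luminal values of Dll1.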
